A study of Sus scrofa with 27 samples.

Results

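DNMT1, DNMT3A, DNMT3B, UHRF1, HELLS, TET1, TET3, EZH2 and SUZ12, enzymes and partners that write, copy or erase DNA methylation or trimethylate histone H3 at lysine 27, were followed in the mural granulosa cells (GCs) of sows. They were chosen by gene symbol through the pig Ensembl identifiers of the count tables. Of the 10 symbols in the choice, 9 matched 1 identifier each, all 9 passed the filter on low counts, and they are 9 of the 11384 genes tested. TET2 was not analysed here. Every animal was a wild-type Large White times Norwegian Landrace sow. In lactation's last 2 weeks the daily ration was 6.5 kg for the full-fed (FF) group and 3.25 kg for the restricted (RES) group, and after weaning both groups were fed alike until the ovary was taken on day 2. The labels call this full feeding, while the methods give a single lower ration for all sows. Mural GCs, the layer lining the follicle's inner wall, were cut by laser from the largest healthy follicle of 1 ovary, and 1 library was made per sow, giving 13 FF and 14 RES libraries. The study reports that this follicle was on average smaller in RES than in FF sows. The part of follicle size in the results below was not tested. According to the study's methods the sows came from a larger trial. Most of each group were kept, those that lost most body weight in RES and least in FF, a choice that sets the groups further apart in weight loss.

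DNA methylation is copied after each round of DNA replication: UHRF1 recognises the hemimethylated site behind the replication fork, DNMT1 methylates the new strand, and HELLS, a chromatin remodeler, opens packed DNA for them. DNMT3A and DNMT3B place methyl groups on sites that had none, and the TET enzymes oxidise 5-methylcytosine, which starts its removal. EZH2 is the catalytic and SUZ12 a structural subunit of Polycomb repressive complex 2 (PRC2), which trimethylates histone H3 at lysine 27. GCs divide during follicle growth and leave the cell cycle as they differentiate, and CDK1, the kinase that drives entry into mitosis, served as the cell cycle reference.

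Values are normalized counts, that is, deposited counts divided by a size factor for each library, and they were not compared between genes because they are not scaled to transcript length. Total counts were 12299220 to 18120922 per library. Of 11 granulosa markers 10 were measured, with summed levels of 72910 to 149200 normalized counts per library. Read quality, measured by how many bases reached a score of 20, placed 7 FF and 7 RES libraries in an upper and 6 FF and 7 RES libraries in a lower quality group, with a gap between them. The records leave it uncertain whether the quality values listed for FF sow 10 belong to its library, which lies in the lower group, and the RNA integrity listed under that number is the lowest of the libraries. Genes were called at an adjusted p under 0.05 of edgeR's quasi-likelihood test.

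Among the 9 genes, 2 libraries stood apart. FF sow 10 had the highest DNMT1, DNMT3A and UHRF1 and the lowest TET1 of the FF group. Its UHRF1 was 306 normalized counts, against 29.7 to 121 in the other 12 FF sows, and its DNMT3A was 479, against 111 to 212. It had the lowest summed granulosa markers of the FF group, 72910 against 77120 to 128100, and the second highest summed stroma markers, whose part in its values was not tested. RES sow 7 had the lowest DNMT1, DNMT3B, UHRF1, HELLS, EZH2, SUZ12 and CDK1 of the RES group. It also had the highest summed theca, endothelial, immune and stroma markers there, with 2289 endothelial normalized counts against 755 to 1550 in the other 13 sows. Results for the 9 genes that rest on either library are given with and without it. Of all genes edgeR called 18.3% without FF sow 10 and 20.6% without RES sow 7.

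RES against FF called 4 of the 9 genes, all higher in RES GCs: DNMT1 and HELLS, which act in the copying of methylation, DNMT3B, which places it anew, and EZH2, which catalyses the Polycomb mark. No TET gene was called. Over all tested genes 14.1% were called in either direction and 8.29% higher. The median log2 fold change was 0.58 over the 9 genes and -0.02 over all genes. UHRF1, SUZ12, TET1, DNMT3A and TET3 did not pass this test in the 27 libraries. In the same libraries DESeq2's Wald test also called UHRF1 (adjusted p = 0.0329) and SUZ12 (0.0166), and limma's voom with sample weights called UHRF1 (0.000444), SUZ12 (0.00997) and TET1 (0.018). DESeq2 called 18.5% of all genes, 12.5% higher, and voom 28.0%, 14.5% higher. Fewer cells of a kind and less RNA per cell cannot be told apart in these bulk libraries.

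**Figure D1:**
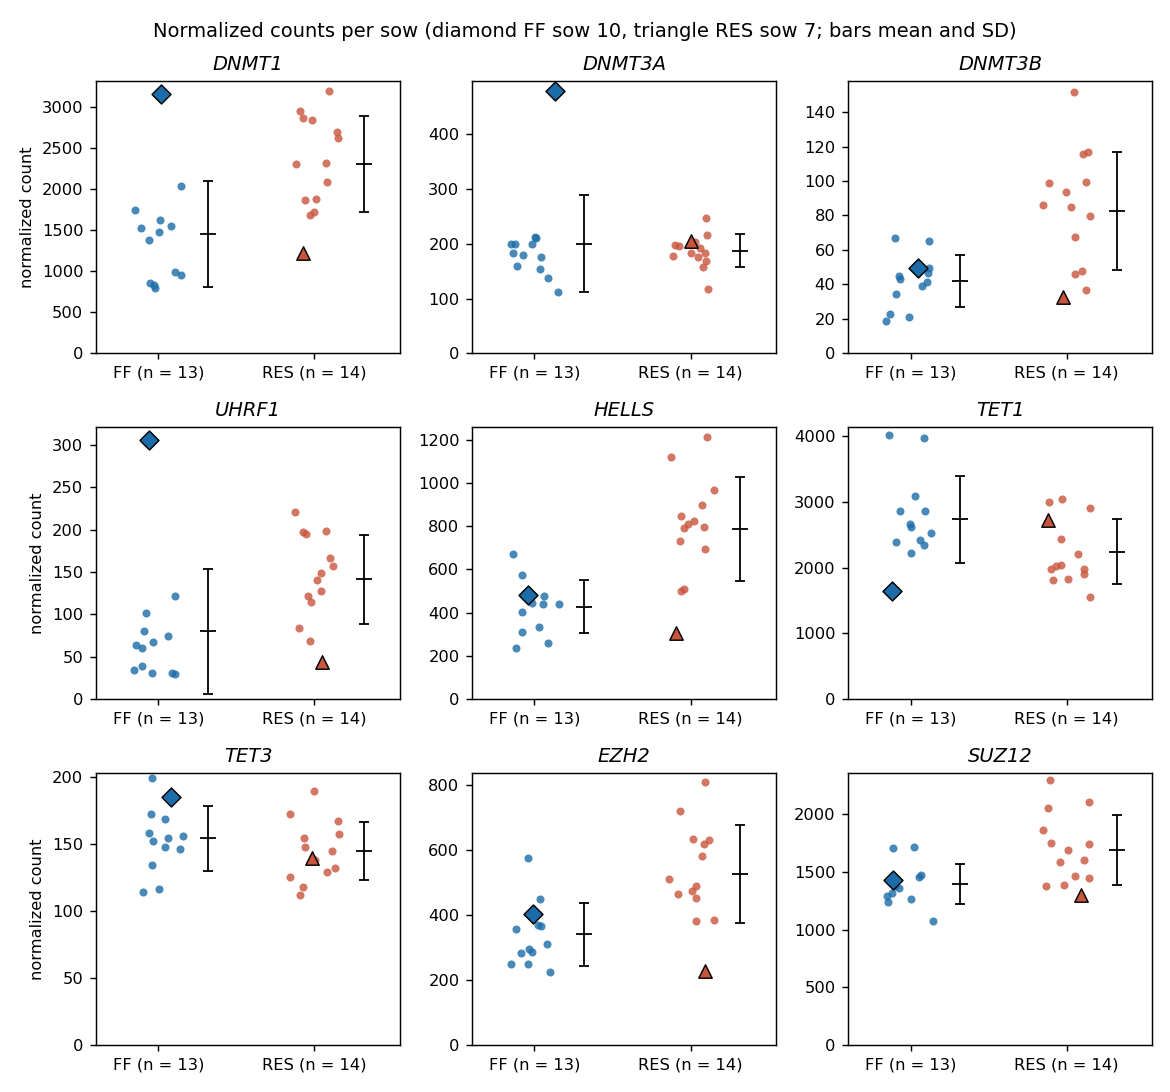
Normalized counts of the 9 genes (vertical axes, from 0) in each of the 13 FF and 14 RES sows, with FF sow 10 as a diamond, RES sow 7 as a triangle, and the mean and SD as bars. HELLS exceeded the highest FF sow in 11 RES sows, while DNMT3A and TET3 overlapped throughout.

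HELLS had the lowest p of the 9 genes. Its gene lies at chr14:105923727-105967003 on the minus strand. In FF GCs the lowest sow had 238 normalized counts, the median was 441 and the highest 670, and in RES GCs these were 304, 803 and 1210. All but 3 RES sows lay above every FF sow, and 1 of the 3, RES sow 7, lay below the FF median. Mean HELLS was 428 ± 122 (SD, n = 13) for FF sows and 786 ± 239 (SD, n = 14) for RES sows, which the test put at 0.83 on the log2 scale (SE 0.16, adjusted p = 0.00194).

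DNMT1 (chr2:68981564-69040364, minus strand), the maintenance methyltransferase, had 798, 1481 and 3166 normalized counts as lowest, median and highest in FF, and 1223, 2317 and 3198 in RES. In 13 of 14 RES sows it was above the FF median, but the highest FF value, that of sow 10, was exceeded by 1 RES sow only. Its log2 fold change was 0.61 (SE 0.18, adjusted p = 0.0236), and 0.77 (SE 0.15, adjusted p = 0.00169) without FF sow 10.

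UHRF1, the partner that brings DNMT1 to hemimethylated sites, lies at chr2:73898061-73937727 on the minus strand. Its lowest, median and highest values were 29.7, 63.8 and 306 normalized counts in FF and 43.9, 145 and 220 in RES. As for DNMT1, 13 of 14 RES sows lay above the FF median, and because of FF sow 10 none lay above the highest FF value. UHRF1 differed by 0.77 on the log2 scale (SE 0.30, adjusted p = 0.0857) in all libraries and by 1.17 (SE 0.24, adjusted p = 0.00187) without FF sow 10. Without RES sow 7 the adjusted p was 0.042. With all libraries kept it also passed with RNA integrity as a covariate (adjusted p = 0.0322) and with the tools named above. The UHRF1 call thus depended on the method as well as on 1 library of either group. The RNA integrity listed for FF sow 10 is the lowest and may not belong to its library, so the covariate fit is not separate from that library. An exon of UHRF1 overlaps one of ARRDC5 on the other strand, and reads were counted without regard to strand, so its counts are uncertain to that extent.

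Of the methyltransferases for unmethylated sites, DNMT3B was called and DNMT3A was not. DNMT3B (chr17:36345715-36386076, plus strand) had 18.6, 43.2 and 67.1 normalized counts as lowest, median and highest in FF and 33.0, 85.4 and 151 in RES. In 10 of 14 RES sows it exceeded every FF sow, and its log2 fold change, 0.94 (SE 0.22, adjusted p = 0.00487), was the largest of the 9 in this fit, although that of UHRF1 was larger in several others, among them those without FF sow 10 and with voom. DNMT3A (chr3:113501972-113609148, plus strand) had 111, 183 and 479 in FF and 117, 188 and 248 in RES, with 7 RES sows above and 7 below the FF median. Its log2 fold change was -0.15 (SE 0.16, adjusted p = 0.557), and it was 0.04 (SE 0.10) without FF sow 10. It was 0.16 (SE 0.14) in the upper quality group and -0.11 (SE 0.15) in the lower one without FF sow 10. Its sign thus varied with the set of libraries.

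TET1 (chr14:71675671-71812732, plus strand) had 1638, 2614 and 4019 normalized counts as lowest, median and highest in FF and 1553, 2034 and 3038 in RES. The FF median lay above 10 of the 14 RES sows. Its log2 fold change was -0.32 (SE 0.13, adjusted p = 0.0858). Without FF sow 10, the FF sow with the lowest TET1, the difference was -0.36 (SE 0.12) and passed at an adjusted p of 0.0382. TET3 (chr3:68918896-69020406, minus strand) ranged from 114 to 199 around a median of 155 in FF and from 112 to 189 around 142 in RES, and the groups overlapped almost completely. Its log2 fold change was -0.13 (SE 0.09, adjusted p = 0.344), and an exon of LOC102163719 overlaps it on the other strand.

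EZH2 (chr9:109384976-109450943, plus strand) had 225, 312 and 574 normalized counts as lowest, median and highest in FF and 228, 499 and 808 in RES. It was above the FF median in 13 of 14 RES sows and above every FF sow in 6. With means of 340 ± 95.8 (SD, n = 13) and 526 ± 151 (SD, n = 14), EZH2 differed by 0.58 on the log2 scale (SE 0.15, adjusted p = 0.00902). SUZ12 (chr12:42983597-43032671, minus strand) had 1076, 1379 and 1714 in FF and 1303, 1647 and 2300 in RES. Its difference was smaller, 0.23 on the log2 scale (SE 0.08, adjusted p = 0.0519), although 12 of 14 RES sows were above the FF median. It was called in 8 of the 27 fits that left out 1 library and in 5 of 12 other settings. Its adjusted p was 0.0386 without FF sow 10, 0.0249 without RES sow 7 and 0.0332 with the quality group as a covariate, but 0.0778 with RNA integrity as a covariate and 0.142 with a replicate block. An exon of CRLF3 overlaps SUZ12 on the other strand.

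A further 6 paralogs, partners and opponents of these genes, EZH1, UHRF2, EED, KDM6A, KDM6B and TDG, did not pass the test. EZH1, the other catalytic subunit of PRC2, averaged 184 ± 40.2 normalized counts over 13 FF sows and 159 ± 26.6 over 14 RES sows (SD), or -0.25 on the log2 scale (adjusted p = 0.148). UHRF2, the paralog of UHRF1, had a log2 fold change of 0.12 (adjusted p = 0.485), and EED, the PRC2 subunit that binds the finished mark, one of -0.02 (adjusted p = 0.878). KDM6A and KDM6B, which remove that mark, had -0.12 and -0.23, and TDG, the glycosylase that excises oxidised 5-methylcytosine, had 0.24 (adjusted p = 0.138).

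Ratios within a library do not depend on library size. The log2 ratio of EZH2 to EZH1 averaged 0.86 ± 0.53 over 13 FF sows and 1.68 ± 0.63 over 14 RES sows (SD), so that RES was higher by 0.82 (permutation test, two-sided, adjusted p = 0.00237 over 3 ratios). It was above the FF median in 13 of 14 RES sows. DNMT1 relative to DNMT3A was higher by 0.76 in RES (permutation test, adjusted p = 0.00156), and UHRF1 relative to UHRF2 by 0.90 (permutation test, adjusted p = 0.00679). All 3 differences were above 0 in both quality groups, but in the lower one none passed: 0.62, 0.63 and 0.34, with adjusted p of 0.0997, 0.0577 and 0.533 in the exact permutation test.

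Diet differences were larger in the upper than in the lower quality group for each of the genes called in all libraries. In the upper group edgeR called 6 of the 9 genes, where 17.8% of all genes were called. DNMT1 had a log2 fold change of 1.01 (SE 0.21), DNMT3B 1.33 (SE 0.26), UHRF1 1.50 (SE 0.28), HELLS 0.97 (SE 0.21), EZH2 0.81 (SE 0.19) and TET1 -0.58 (SE 0.16). In the lower group edgeR called 0 of the 9, and 1 of all 11384 genes (0.00878%). HELLS alone had an unadjusted p under 0.05 there, with 0.67 (SE 0.21, adjusted p = 0.214). DNMT1 had 0.18 (SE 0.25) and UHRF1 0.03 (SE 0.45) in the lower group, and 0.49 (SE 0.18) and 0.75 (SE 0.33) there without FF sow 10. The difference between the quality groups itself did not pass for any of the 9 genes (edgeR interaction, adjusted p of 0.323 for UHRF1, the lowest). Its unadjusted p was under 0.05 for 5 of them, DNMT1, DNMT3A, DNMT3B, UHRF1 and TET1, and for 12.3% of all genes.

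**Figure D2:**
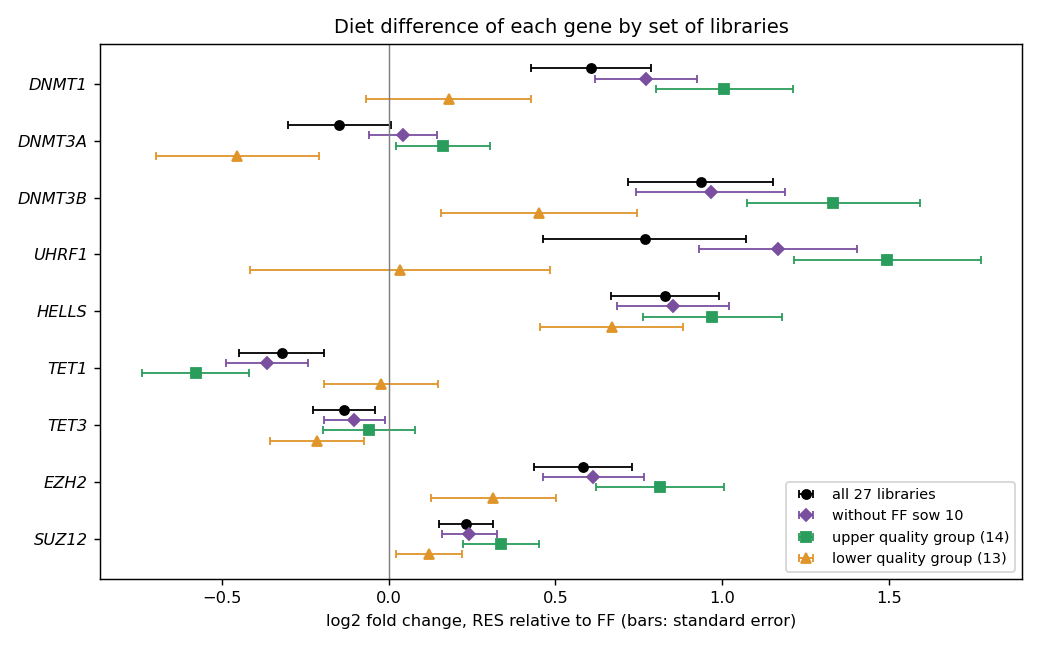
Log2 fold change of RES relative to FF (horizontal axis) with its standard error for each gene, in all 27 libraries, without FF sow 10, and in the upper and lower quality groups. Leaving out FF sow 10 moved UHRF1 from 0.77 to 1.17 and DNMT3A from -0.15 to 0.04, while HELLS stayed between 0.67 and 0.97 in these 4 sets.

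Some markers of other cell types also differed by diet. Against the 5.85% of all genes called lower, 3 of the 6 endothelial markers tested, CDH5, CLDN5 and EMCN, were lower in RES, and none was at 0 in every library. Their summed level had a median of 1574 normalized counts in FF, from 1091 to 2315, and of 1077 in RES, from 755 to 2289. The summed theca markers were 1746 to 5752 in FF and 882 to 4875 in RES, with 1 of 6, CYP11A1, lower. Of the stroma markers 1 of 7, PDGFRB, was lower, and of the 3 immune and 3 smooth muscle markers tested edgeR called 0. Of the erythroid markers 1 of 2, HBB, was lower, with summed medians of 92.2 in FF and 25.5 in RES. The summed levels overlapped between the diets and were not tested. Within the RES group the endothelial sum correlated with EZH2 at r = -0.79, with DNMT1 at -0.73 and with HELLS at -0.72 (n = 14), and within FF at -0.62, -0.42 and -0.52 (n = 13), given as a description. Without RES sow 7 the RES values were -0.56, -0.51 and -0.40 (n = 13). The stroma sum differed in sign between the groups, with r of 0.56 for EZH2 and 0.64 for DNMT1 in FF and -0.71 and -0.64 in RES, and -0.62 and -0.52 in RES without sow 7. The theca sum had r of -0.74 with EZH2 and -0.73 with HELLS in RES, -0.52 and -0.50 there without sow 7, and -0.08 and -0.04 in FF. The part of these cells in the diet differences was not tested.

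Which of the genes follow the cell cycle was asked within each group, so that the diet difference in CDK1 does not create the correlation. CDK1 averaged 721 ± 411 normalized counts over the FF sows (SD, n = 13) and 1518 ± 607 over the RES sows (SD, n = 14), or 1.03 on the log2 scale (SE 0.26, adjusted p = 0.00926). Pearson's r was tested with 100000 permutations for 18 correlations, which share CDK1 and, within a group, the libraries.

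In RES GCs 6 of 9 genes correlated with CDK1, each at an r above 0.5, a value that 19.1% of all genes exceeded. HELLS had r = 0.95 and EZH2 r = 0.94, both at the smallest p that the permutations can give, 1e-05 (adjusted p = 9e-05), with Spearman's rho of 0.93 and 0.94. SUZ12 followed at r = 0.84 (adjusted p = 0.0012, permutation), DNMT1 at 0.83 (0.00158), DNMT3B at 0.74 (0.0078) and UHRF1 at 0.67 (0.0211), with rho of 0.80, 0.80, 0.78 and 0.70. DNMT3A had r = -0.50 (adjusted p = 0.126), TET1 -0.35 (0.299) and TET3 -0.10 (0.744) by the same permutation test. The negative r of DNMT3A passed on TMM-scaled counts (r = -0.61, adjusted p = 0.035, permutation). Without RES sows 1 and 7, the 2 farthest from the median CDK1, r was 0.91 for HELLS, 0.87 for EZH2, 0.73 for SUZ12, 0.68 for DNMT1, 0.52 for DNMT3B and 0.46 for UHRF1. The last 3 no longer passed (adjusted p = 0.0542, 0.172 and 0.251, permutation), so that these calls rested on the 2 sows, although leaving them out also narrows the range of CDK1. DNMT1 and DNMT3B passed when any 1 RES sow was left out, with r of 0.76 to 0.91 and 0.64 to 0.85. For UHRF1 leaving out RES sow 7 alone was enough to lose the call (r = 0.53, adjusted p = 0.121, permutation).

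In FF GCs, where 10.2% of all genes had r above 0.5, 3 of 9 genes correlated with CDK1, HELLS at r = 0.80 (rho 0.79, adjusted p = 0.0023, permutation), EZH2 at 0.74 (rho 0.81, adjusted p = 0.0119) and DNMT3B at 0.68 (rho 0.70, adjusted p = 0.022). SUZ12 had r = 0.48 (adjusted p = 0.157), DNMT1 0.28 (0.415), UHRF1 0.18 (0.556), DNMT3A -0.20 (0.528), TET1 -0.29 (0.415) and TET3 -0.44 (0.197), permutation test throughout. For UHRF1 and DNMT1 the values depended on FF sow 10, which had high levels of both genes beside a CDK1 of 537. Without it r was 0.79 for UHRF1 (adjusted p = 0.00669, permutation, n = 12) and 0.65 for DNMT1 (adjusted p = 0.0377). By Spearman's rho, with all FF sows kept, 4 of the 9 genes passed. UHRF1 was the added gene, with rho of 0.70 (unadjusted p = 0.0104, permutation), while DNMT1 had rho of 0.50 (unadjusted p = 0.0858, permutation). Without FF sows 3 and 4, the 2 farthest from the median CDK1, EZH2 and DNMT3B still passed, at r = 0.81 and 0.76, and HELLS had r = 0.62 (adjusted p = 0.110, permutation). DNMT3B no longer passed without FF sow 4 alone (r = 0.58, adjusted p = 0.1003, permutation) or without FF sow 2 alone (r = 0.62, adjusted p = 0.0612), whereas HELLS and EZH2 passed when any 1 FF sow was left out.

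No correlation differed between the groups by the permutation test of the difference, whose lowest unadjusted p was 0.0924, for HELLS, and whose adjusted p was 0.390 or above. Correlations of this size are not confined to these genes: r exceeded 0.8 for 4.87% of all genes in RES and 1.6% in FF. HELLS exceeded 99.7% of all genes in RES and 98.4% in FF, and EZH2 99.4% and 97.5%, while in RES DNMT3B exceeded 92.8% and UHRF1 89.4%.

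**Figure D3:**
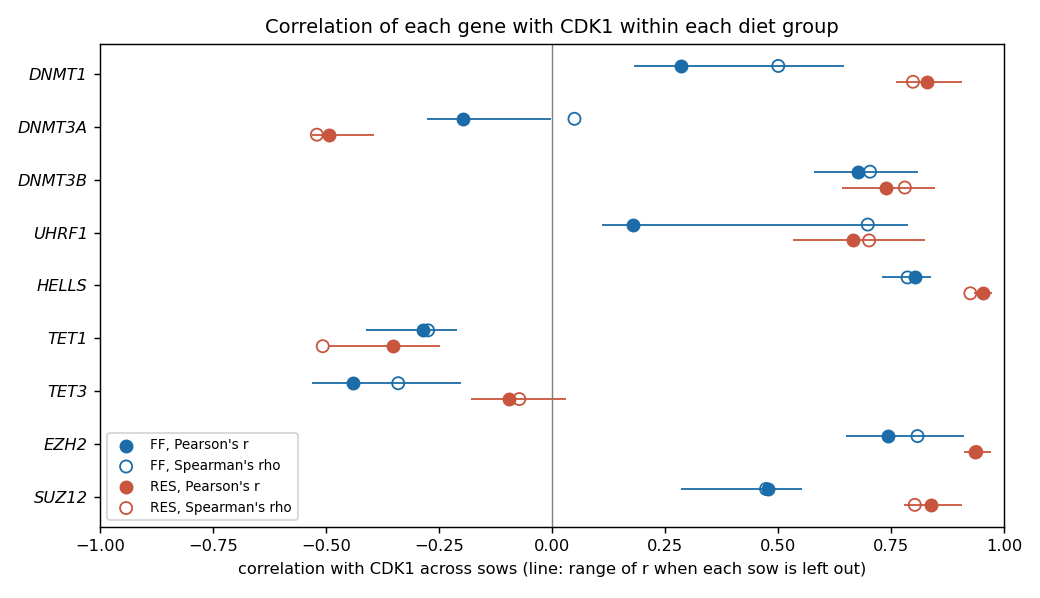
Pearson's r (filled) and Spearman's rho (open) of each gene with CDK1 across 13 FF and 14 RES sows, with lines from the lowest to the highest r when each sow is left out. HELLS and EZH2 lie at the right in both groups, TET1 and TET3 left of 0, and the long FF line of UHRF1 runs from 0.11 to 0.79.

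On residuals within the quality groups of the RES sows DNMT3A passed (r = -0.70, adjusted p = 0.011, permutation) and UHRF1 did not (r = 0.55, adjusted p = 0.0655). Within each quality group, r is given without a test. HELLS and EZH2 had positive r with CDK1 in all 4 sets: 0.89 and 0.77 in the upper FF, 0.43 and 0.84 in the lower FF, 0.95 and 0.96 in the upper RES, and 0.92 and 0.86 in the lower RES libraries. UHRF1 had r = 0.83 in upper and 0.04 in lower FF libraries, where FF sow 10 lies, and 0.97 and 0.39 in RES. DNMT1 had 0.74 and 0.04 in FF and 0.87 and 0.67 in RES. DNMT3B had 0.83 and 0.75 in FF but 0.90 and 0.25 in RES, and SUZ12 had 0.53 and -0.29 in FF and 0.79 and 0.84 in RES. DNMT3A had -0.20 and -0.14 in FF and -0.77 and -0.69 in RES.

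**Figure D4:**
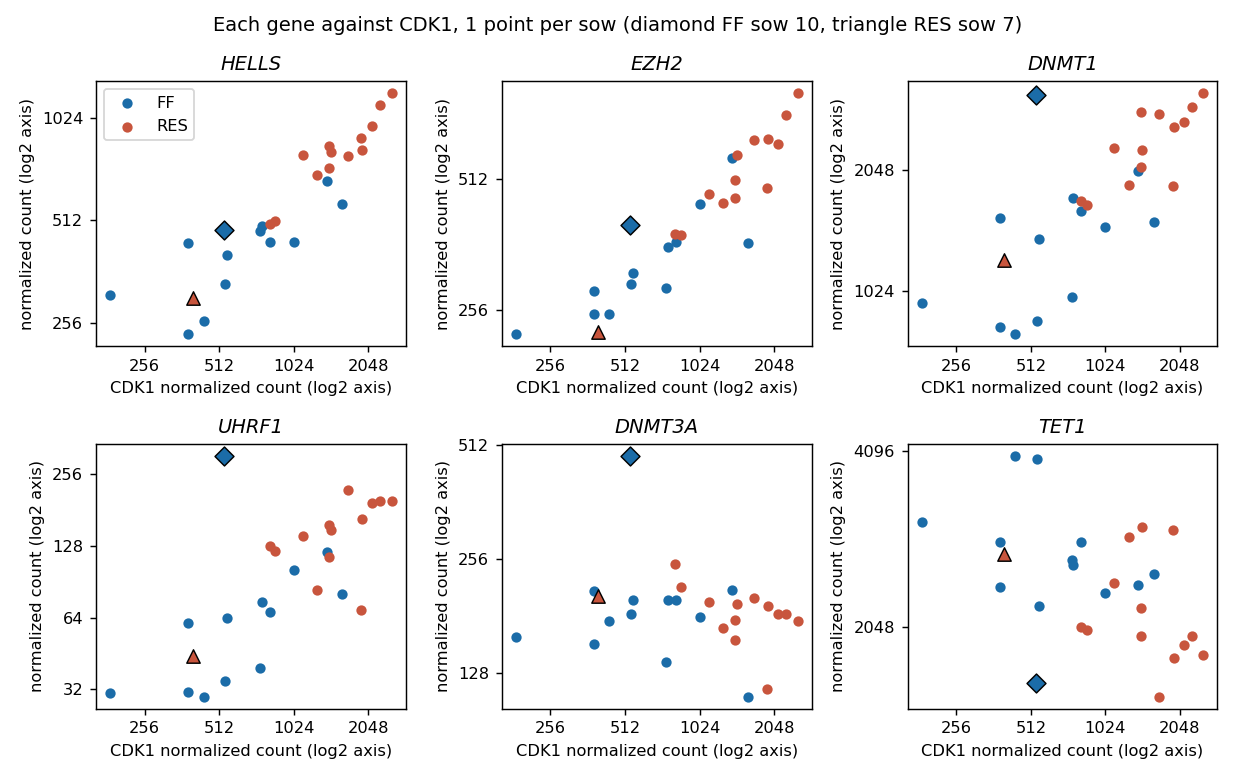
Normalized counts of 6 genes against those of CDK1 (both log2 axes), 1 point per sow, FF in blue and RES in red, with FF sow 10 as a diamond and RES sow 7 as a triangle. HELLS and EZH2 of both groups form 1 band, while FF sow 10 lies above the band of DNMT1, UHRF1 and DNMT3A.

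One fit over all 27 libraries with diet and log2 CDK1 gave each gene's slope, the log2 change per doubling of CDK1. EdgeR called 5 of the 9 slopes, all positive, where 15.4% of all genes had a called slope and 9.15% a positive one. The slopes were 0.55 (SE 0.11) for DNMT3B, 0.49 (SE 0.07) for HELLS, 0.46 (SE 0.06) for EZH2, 0.35 (SE 0.11) for DNMT1 and 0.15 (SE 0.05) for SUZ12. UHRF1 had 0.52 (SE 0.21, adjusted p = 0.0888), and 0.62 (adjusted p = 0.000214) without FF sow 10, where 18.8% of all slopes were called. The slopes of DNMT1 and SUZ12 did not pass without RES sow 7 (adjusted p = 0.139 and 0.116), where 6.58% of all slopes were called. SUZ12 also missed with the quality group as a further covariate (adjusted p = 0.0793). With a replicate block, where 4.34% of all slopes were called, those of HELLS and EZH2 passed and those of DNMT1 (adjusted p = 0.203), DNMT3B (0.0604) and SUZ12 (0.0898) did not. With the mean of the mitosis genes in place of CDK1, where 14.3% of all slopes were called, UHRF1 (0.89, adjusted p = 0.00154) and TET1, negatively (-0.26, adjusted p = 0.0372), passed and SUZ12 did not (adjusted p = 0.0657).

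In the same fit the diet difference at equal CDK1 was 0.03 (SE 0.11) for EZH2, 0.06 (SE 0.09) for SUZ12, 0.19 (SE 0.20) for DNMT1, 0.24 (SE 0.12) for HELLS and 0.30 (SE 0.21) for DNMT3B on the log2 scale. EdgeR, the only tool run on this fit, called 0 of the 9 genes and 0 of 11383 genes, and 700 of all genes (6.15%) but 0 of the 9 had an unadjusted p under 0.05. Among the 9, the lowest unadjusted p was that of HELLS, 0.0678. Without FF sow 10 the unadjusted p was under 0.05 for DNMT1 (0.34, SE 0.14), UHRF1 (0.51, SE 0.20) and HELLS (0.27, SE 0.12), with adjusted p of 0.423, 0.423 and 0.491, and for 9.36% of all genes. Without RES sow 7 HELLS alone of the 9 had such a p, with 0.33 (SE 0.13, adjusted p = 0.754), as did 6.17% of all genes. With DESeq2 size factors HELLS had an unadjusted p of 0.0498 (0.26, SE 0.13), and 6.36% of all genes were under 0.05. With the mean of the mitosis genes in place of CDK1 the differences were -0.07 (SE 0.19) for DNMT1, 0.03 (SE 0.23) for DNMT3B, 0.14 (SE 0.16) for HELLS, -0.08 (SE 0.13) for EZH2 and -0.34 (SE 0.33) for UHRF1. CDK1 itself differed by diet, so a diet difference that runs along CDK1 and one that does not are only partly separable here.

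DNMT1 and UHRF1 went with DNA replication genes more closely than with mitosis genes. On log2 normalized counts, against the mean of 12 replication genes, such as the MCM helicase subunits, r was 0.93 for DNMT1 and 0.91 for UHRF1 in FF and 0.96 and 0.93 in RES, and in FF without sow 10 it was 0.94 and 0.96. Against the mean of 14 mitosis genes, r was 0.67 and 0.69 in FF, 0.77 and 0.86 in FF without sow 10, and 0.89 and 0.79 in RES. HELLS had similar r with both lists, 0.84 and 0.82 in FF and 0.85 and 0.88 in RES, and so did EZH2, with 0.88 and 0.88, then 0.91 and 0.91. TET1 ran the other way, with -0.72 in FF and -0.60 in RES against the replication genes. DNMT1 and UHRF1 also had r = 0.96 with each other in FF and 0.89 in RES, and TET1 had -0.78 with UHRF1 in FF and -0.74 in RES. These correlations share libraries and are given as a description, without a test.

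The 3 genes most like a given gene were taken by r of log2 normalized counts over the 27 libraries after subtracting group means. They were MCM10 (0.94), DTL and UHRF1 for DNMT1, POLE (0.95), DNMT1 and CDC45 for UHRF1, and TOPBP1 (0.96), ATAD2 and PCLAF for HELLS. BRCA1 (0.95), WDHD1 and PLK4 were most like EZH2, and REXO5 (0.86), RNASEH2B and LMNB1 most like DNMT3B. MCM10, CDC45 and POLE act at the replication fork, TOPBP1 and BRCA1 in the replication and repair of DNA, and PLK4 in centriole duplication. The genes most like TET1 were BAZ2B (0.93), SESN1 and NBEAL1, those most like SUZ12 were SRSF1 (0.89), CDV3 and XPOT, and those most like TET3 were BNC2 (0.75), CSRNP2 and TTLL4.

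Because several of the 9 genes moved with CDK1, the 250 bases before each start were searched for letters that the E2F factors, the regulators of S-phase genes, are known to bind. Sequence is from the Sscrofa11.1 genome and RefSeq transcript models, and the start shared by most models was used. Both strands were searched for TTCCCGC and for relatives that differ from it in the middle letters, namely TTGGCGC as the second word, then TTCGCGC as the third word, and finally TTGCCGC as the fourth. Of 10483 such windows 14.5% held at least 1, and 2 of the 9 genes did, DNMT1 and SUZ12. Stretches of 30 bases are shown for these, for CDK1 and for the paralogs EZH1 and UHRF2, with the matched letters, or their reverse complement, in capitals.
DNMT1, chr2:69029400-69029429, minus strand: cgcggcggcagTTGGCGCgggcagggtggc
SUZ12, chr12:43032857-43032886, minus strand: gacccctaattTTCCCGCgaattcagttca
CDK1, chr14:64233800-64233829, plus strand: ctcacactcagTTGGCGCccgccctcctgc
CDK1, chr14:64233848-64233877, plus strand: ttcctccttctTTCGCGCtctagccaccca
EZH1, chr12:20107576-20107605, plus strand: tgggcgtatggGCGCCAAgccccagatgtg
UHRF2, chr1:215807817-215807846, minus strand: tcaggtctaaaGCGGCAAcccgtgtgggcg
The match lies 19 to 13 bases before the start in DNMT1 and 204 to 198 before it in SUZ12, and CDK1 has 1 at 134 to 128 and another at 86 to 80. HELLS and EZH2, the genes with the highest r with CDK1, had none of these letters in the window, while EZH1 and UHRF2, which were not called, had 1 each. The start of DNMT1 used here is that of 2 of its 10 models, and the start of EZH2 that of 2 of its 12. The searched windows of DNMT1, DNMT3B, HELLS, EZH2 and UHRF2 overlap exons of the same gene. Those of SUZ12, CDK1 and TET3 overlap exons of LOC110256057, LOC100152879 and LOC102163719. With the outermost start of each gene the count was again 2 of 9, with DNMT3B in place of DNMT1. The matches are a description of the sequence, and binding was not measured.

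Other genes of these pathways were counted by list. Counts of genes higher in RES are to be read against the 8.29% of all tested genes that edgeR called higher, 11.0% without RES sow 7, 12.5% for DESeq2 and 14.5% for voom. Counts that mix both directions are to be read against 14.1%, 20.6%, 18.5% and 28.0% in the same order. Of 16 other genes linked to DNA methylation, including methyl supply genes and the histone methyltransferases NSD1 and SETD2, 3 were higher in RES. The list's median was 0.13 on the log2 scale. DESeq2 called 6 higher, MAT2A and SETD2 among them, and voom 6 higher and 1 lower. Without RES sow 7 edgeR called 5 genes of this list, 1 of them lower. The 3 were CDCA7 (0.74, SE 0.21, adjusted p = 0.0196), which recruits HELLS to chromatin, its relative CDCA7L (0.66, SE 0.17, adjusted p = 0.00959), and AHCY (0.50, SE 0.16, adjusted p = 0.034), which clears the by-product of methyl transfer. The methyl-binding genes MBD1, MBD2, MBD3 and MBD4 did not pass. Of 11 demethylation partners of the TET enzymes edgeR called 0, or 1 without RES sow 7, DESeq2 called 1 higher and voom 2 higher and 1 lower. TDG, UNG and OGT, or 3 of the 11, had an unadjusted p under 0.05 in edgeR, where 30.0% of all genes did. UNG, a uracil glycosylase and the gene called by DESeq2, had the largest difference, 0.46 (adjusted p = 0.0967 in edgeR).

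Of 10 other PRC2 genes 1 was called, PHF19, a subunit that directs the complex to chromatin, at 0.68 on the log2 scale (SE 0.17, adjusted p = 0.00885). The list's median was -0.02. In PRC1, the second Polycomb complex, 2 of 18 genes were higher, CBX2 (1.05, SE 0.31, adjusted p = 0.0231), a reader of the H3 lysine 27 mark with only 6.93 ± 5.09 normalized counts among FF sows (SD, n = 13) and 14.7 ± 6.75 among RES sows (SD, n = 14), and PCGF6 (0.31, SE 0.11, adjusted p = 0.0494). Of the 6 genes for erasers of the Polycomb marks and their cofactors edgeR, DESeq2 and voom called 0, and 0 had an unadjusted p under 0.05 in edgeR. In H3 lysine 9 methylation 2 of 9 were higher, the methyltransferase SUV39H2 (0.43, SE 0.13, adjusted p = 0.0273) and the reader CBX1 (0.31, SE 0.08, adjusted p = 0.00854), and the list's median was 0.27. DESeq2 called 3 genes of this list higher and voom 5, and edgeR called 3 higher without RES sow 7. In all libraries edgeR and DESeq2 called 0 genes of the 6 lists lower in RES and voom 2, where 5.85% of all genes were lower by edgeR and 13.6% by voom. At an unadjusted p under 0.05 in edgeR 4 genes of the lists were lower, and 14.3% of all genes.

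**Figure D5:**
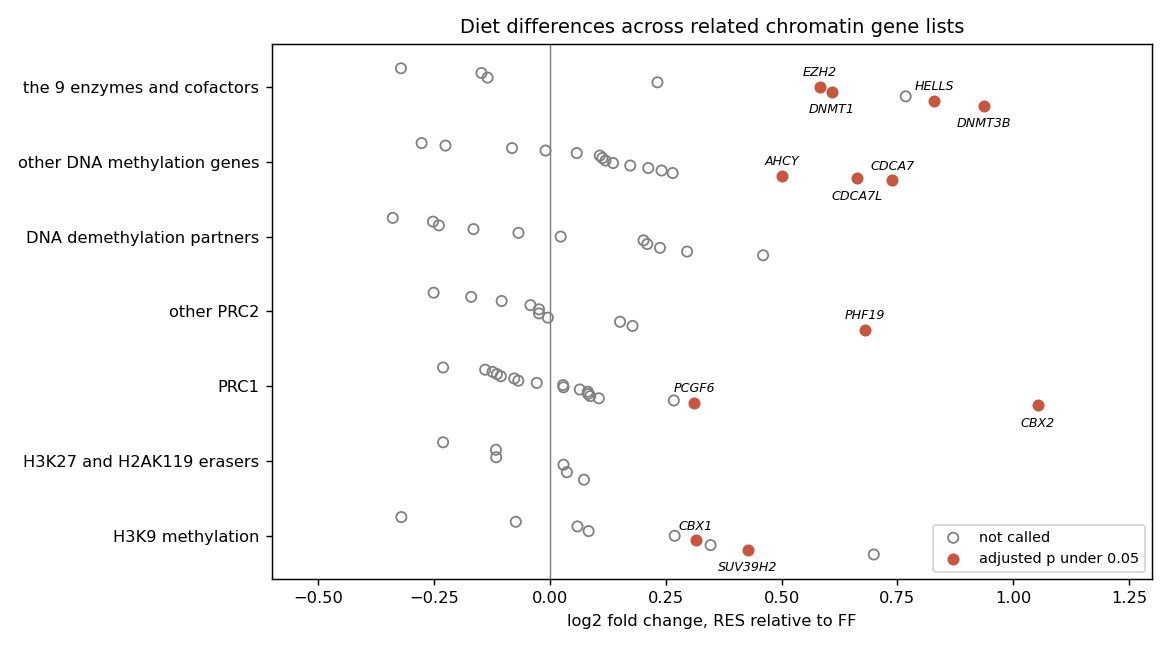
Log2 fold change of RES relative to FF (horizontal axis) for the 9 genes and 6 related lists (rows), with called genes filled and named and the others open. The called genes, 4 of the 9 and 8 in the lists, all lie right of 0.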

How the data were processed

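The 27 deposited files hold whole-number counts per Ensembl gene, not normalized. Per the labels, methods and file headers, the authors aligned ribosome-depleted, UMI-tagged reads to Sscrofa11.1 with HISAT2 2.2.1, removed PCR copies with UMI-tools 1.1.4 and counted on exons of Ensembl release 110 with featureCounts 1.6.2, with no strand option although the kit keeps strand. Symbols came from a table that named 15623 of 35670 identifiers. Identifiers with a symbol and a mean count of at least 5 were tested, without small RNAs (11384 genes).

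Diet was tested with edgeR 4.0.16 (TMM, quasi-likelihood, R 4.3.3) without covariates, with Benjamini-Hochberg adjustment over all tested genes and the threshold of 0.05. Each SE was taken as the fitted log2 difference over the root of its F statistic. Normalized counts are counts over DESeq2 1.42.0 size factors. Correlations and ratios used permutation tests (numpy 2.4.6, scipy 1.17.1), two-sided, exact within quality groups, and ratios had 1 added to each normalized count. Alternatives were DESeq2's Wald test, limma 3.58.1 voom with sample weights, other scalings and filters, all identifiers, quality group or RNA integrity (RIN) as covariate, a replicate block, and leaving out each library. Scripts were tested on simulated data.

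The genes and lists were chosen with earlier results of these data known. Named genes were all members, up to 3 called genes of each list by largest change, fixed paralogs and partners, and the 3 genes most alike. The genes most like DNMT3A are not reported here. Totals limit precision for genes of low count, and library numbers are sows, 1 library each.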

Additional observations from a re-analysis of the deposited data

How the results depend on the processing

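DNMT1, DNMT3B, HELLS and EZH2 were called in each of the 27 fits that left out 1 library and in 11 of 12 other planned settings, all but the lower quality group. Of the 9 genes, 4 were called in all libraries, 7 with voom and sample weights (28.0% of all genes), 6 with DESeq2's Wald test (18.5%) and 0 in the lower quality group, also without FF sow 10, a setting chosen after seeing the data. Leaving out 1 library gave 4 to 7 calls, the 7 being without FF sow 10. Correlations with CDK1 that passed numbered 2 to 5 in FF and 5 to 6 in RES when 1 sow was left out, 5 without FF sow 10, and 3 in RES without the 2 farthest sows. With Spearman's rho 4 passed in FF. Called slopes on CDK1 were 5, and 3 without RES sow 7 and 6 without FF sow 10. In the lower quality group the ratio differences were 0.62 for EZH2 to EZH1, 0.34 for UHRF1 to UHRF2 and 0.63 for DNMT1 to DNMT3A. Without FF sow 10 (also chosen after seeing the data) or RES sow 7 they were 0.80 to 0.93, 0.97 to 1.09 and 0.75 to 0.84. The cause of these changes was not tested.

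Replicate numbers did not pair the sows: over 13 numbers the correlation of same-numbered deviations was -0.22 to 0.30, 1 exceeded 0.1, and no library correlated best with its own number. With the replicate block 5 of the 9 genes and 1084 genes in all were called, and 2 slopes, where 4.34% of all slopes were. No result changed direction past the threshold under any alternative. Only identifiers paired with a symbol could be tested by name.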
